A study of Caenorhabditis elegans with 12 samples.

Results

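The insulin/IGF-1 signaling (IIS) cascade was taken here as 10 genes, the canonical route from the receptor to the transcription factor it restrains. They were *daf-2*, *ist-1*, *age-1*, *aap-1*, *daf-18*, *pdk-1*, *akt-1*, *akt-2*, *sgk-1* and *daf-16*, chosen by name. These genes and the gene lists used below were chosen with earlier results of these data known. All 10 were among the 46653 gene identifiers counted, and all 10 passed the filter on low counts that left 16741 genes for testing. Their transcripts were followed in whole *C. elegans* populations of 4 genotypes, *age-1(hx546); rde-4(ne301)*, *age-1(hx546)*, *rde-4(ne301)* and the wild-type (WT) strain N2, with 3 independent populations of each. Worms were grown at 20 °C on *E. coli* OP50 and collected as young adults, on the first day of adulthood before embryos were visible. Total RNA depleted of ribosomal RNA was sequenced with strand-specific libraries. The question put to these genes is whether mutation of *age-1*, loss of RDE-4, or the combination moved the transcripts of the cascade itself.

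In *C. elegans*, insulin-like peptides bind the receptor DAF-2, which acts through the phosphatidylinositol 3-kinase made of the catalytic subunit AGE-1 and the adaptor AAP-1. The kinase makes the membrane lipid PIP3, the phosphatase DAF-18 removes it, and PIP3 allows PDK-1 to activate AKT-1, AKT-2 and SGK-1. AKT phosphorylates the FOXO factor DAF-16 and keeps it out of the nucleus, so that weak signaling lets DAF-16 enter the nucleus and lengthens life. RDE-4 is a double-stranded RNA-binding protein that works with Dicer to make small interfering RNAs. The allele *age-1(hx546)* is a missense allele that lowers signaling mildly, while *rde-4(ne301)* lowers its own transcript.

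The libraries held 74501098 to 82446102 counts, and levels are given as CPM, counts relative to the library total after TMM scaling. A p-value here sets the difference between genotypes against the spread between populations of a genotype, in 1 fit of all 12 libraries unless stated. The transcript of *rde-4* lay between 25.4 and 31.99 CPM in the 6 libraries labelled with *rde-4(ne301)* and between 138 and 201 CPM in the other 6. A pair of libraries stood apart from their group. *age-1; rde-4* population 1 had the lowest mean level of 24 oocyte and early embryo markers and of 11 intestine markers (−0.60 and −0.50 on a log2 scale centred over the 12 libraries), and WT population 1 had the lowest level of 26 sperm markers and of 115 cuticle collagens (−1.67 and −0.87). These are whole animals, in which fewer cells of a type and less RNA per cell cannot be told apart.

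Among the cascade transcripts, *akt-2* changed most between the 4 genotypes. The AKT kinase gene *akt-2* was 2.69-fold higher in *age-1* than in WT and 2.06-fold higher in *age-1; rde-4* than in *rde-4*. In *age-1; rde-4* worms the *sgk-1* transcript lay 0.62 below WT on the log2 scale. The other 8 genes were called in no comparison. Among them were *age-1* itself, its antagonist *daf-18* and the transcription factor *daf-16*.

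**Figure D1:**
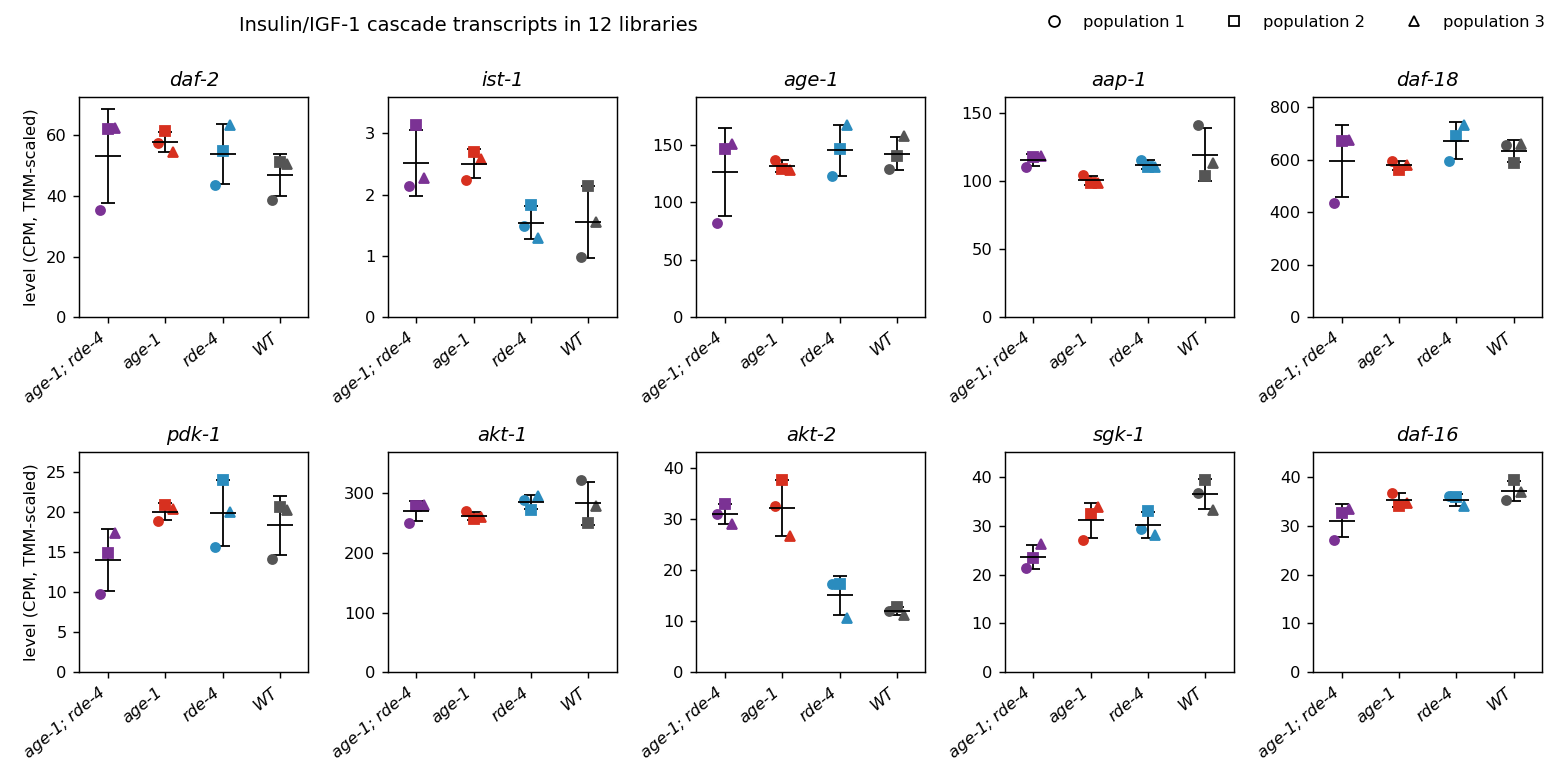
Level of each cascade transcript (CPM scaled by TMM, vertical axes from 0) in the 12 libraries, by genotype; symbols mark the population, the horizontal dash the mean and the bars 1 SD over 3 populations. The *akt-2* panel separates into libraries with the *age-1* mutation, at 26.6 to 37.5 CPM, and those without it, at 10.7 to 17.2 CPM.

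Per length, the cascade spanned more than 2 orders of magnitude. Dividing CPM by the length of the annotated exons placed *daf-18*, which encodes the phosphatase of the cascade, highest in every genotype. It averaged 178 ± 41.4 CPM per kb in *age-1; rde-4*, 174 ± 5.09 in *age-1*, 202 ± 21.05 in *rde-4* and 190 ± 12.2 in WT (SD, n = 3). The kinase gene *akt-1* followed at means of 115 to 125 CPM per kb, then the adaptor gene *aap-1* at 55.8 to 66.3, *age-1* at 32.1 to 36.9 and *sgk-1* at 14.5 to 22.3. By exon length these 5 kept that order in each genotype, with no overlap between neighbours over the populations. By coding length, *daf-18* and *akt-1* overlapped in *age-1; rde-4*. There *akt-2*, at 19.06 ± 1.21 CPM per kb, stood above *sgk-1* at 17.06 ± 1.77, with overlap.

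By exon length, the order below *sgk-1* differed between genotypes. In *age-1* the *akt-2* transcript stood sixth, at 13.5 ± 2.30 CPM per kb, above *daf-16* at 9.55 ± 0.384. In *age-1; rde-4* it was also sixth, at 13.02 ± 0.826 CPM per kb, overlapping *sgk-1* at 14.5 ± 1.504. In WT *daf-16* held that rank at 10.08 ± 0.556 CPM per kb, followed by *pdk-1* at 7.56 ± 1.498, *daf-2* at 5.66 ± 0.852 and *akt-2* at 5.02 ± 0.330, of which *pdk-1* and *daf-2*, and *daf-2* and *akt-2*, overlapped. The lowest member in every genotype was *ist-1*, which encodes an insulin receptor substrate homolog, at 0.39 to 0.63 CPM per kb. The mean of *daf-18* was 281 times that of *ist-1* per kb in *age-1; rde-4*, 275 times in *age-1*, 518 times in *rde-4* and 484 times in WT.

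**Figure D2:**
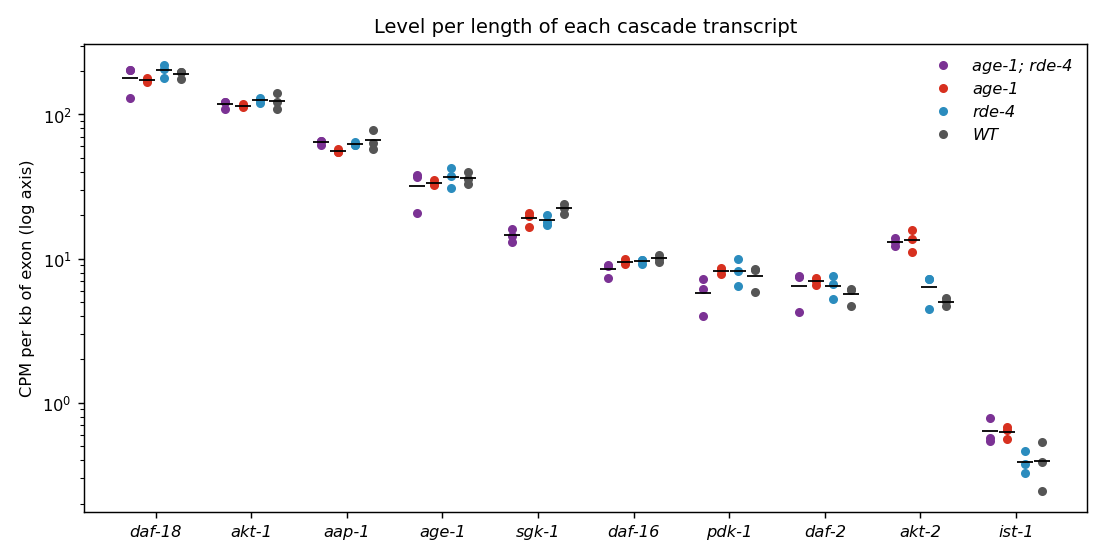
CPM per kb of annotated exon (log axis) for each cascade gene, with a point for each of 3 populations and a dash at their mean, for *age-1; rde-4*, *age-1*, *rde-4* and WT from left to right. The order from *daf-18* down to *sgk-1* is shared by the genotypes, while *akt-2* lies above *daf-16* only where *age-1* is mutated.

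The receptor gene *daf-2* (Y55D5A.5, chromosome III of WBcel235 from 2994514 to 3040846) varied more between populations of a genotype than between genotypes. It was at 35.3, 62.1 and 62.4 CPM in *age-1; rde-4*, at 57.7, 61.4 and 54.7 CPM in *age-1*, at 43.5, 54.9 and 63.3 CPM in *rde-4* and at 38.8, 51.4 and 50.7 CPM in WT. The lowest library was *age-1; rde-4* population 1 and the next lowest WT population 1, the libraries that stood apart in their markers. The 3 *age-1* libraries lay above the 3 WT libraries, by 0.30 on the log2 scale (SE 0.21, adjusted p = 0.332). With oocyte marker level as a covariate, added after the values were known, that difference was 0.49 and was called (adjusted p = 0.0252). Set against *age-1*, the *age-1; rde-4* libraries gave −0.12 (95% interval −0.57 to 0.33).

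The substrate homolog *ist-1* (C54D1.3, chromosome X from 7126648 to 7139666) was scarce, with 72 to 257 counts per library. It was at 2.15, 3.13 and 2.27 CPM in *age-1; rde-4*, at 2.24, 2.70 and 2.58 CPM in *age-1*, at 1.498, 1.84 and 1.3 CPM in *rde-4* and at 0.977, 2.14 and 1.56 CPM in WT. All 6 libraries with the *age-1* mutation were above all 6 libraries without it, by as little as 2.15 against 2.14 CPM. The log2 fold change was 0.69 in *age-1* over WT (SE 0.29, adjusted p = 0.121), 0.70 in *age-1; rde-4* over *rde-4* (SE 0.29, adjusted p = 0.295) and 0.69 in *age-1; rde-4* over WT (SE 0.29, adjusted p = 0.15). None passed the threshold of 0.05 in the model of all 12 libraries without a replicate block. Without WT population 2, the highest of the WT libraries, the first became 0.98 (adjusted p = 0.0296) and the last 1.01 (adjusted p = 0.0355). With all 12 libraries and replicate number as a block, the first and the last were also called.

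The subunits of the phosphatidylinositol 3-kinase were not called in any comparison. The catalytic subunit gene *age-1* (B0334.8, chromosome II from 11519328 to 11527054) was at 82.1, 146 and 150 CPM in *age-1; rde-4*, at 137, 129 and 128 CPM in *age-1*, at 122, 146 and 167 CPM in *rde-4* and at 129, 140 and 158 CPM in WT. The groups overlapped in every pair, and 1 library, *age-1; rde-4* population 1, was far below the rest. In *age-1* against WT the log2 fold change was −0.11 (95% interval −0.53 to 0.31, adjusted p = 0.725). The *hx546* change alters the protein, so the amount of transcript is no check of the genotype.

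The adaptor subunit gene *aap-1* (Y110A7A.10, chromosome I from 5107843 to 5110183) kept to 98.5 to 141 CPM. In *age-1; rde-4* it was at 111, 118 and 119 CPM, above 105, 98.5 and 98.9 CPM in *age-1* without overlap (log2 fold change 0.20, SE 0.11, adjusted p = 0.534). In *age-1* against WT it was −0.25 (SE 0.11, adjusted p = 0.131), and −0.35 (adjusted p = 0.0417) without WT population 2. The exons of *aap-1* share 136 bases with Y110A7A.21 on the opposite strand, itself at means of 5.57 to 7.24 CPM, and whether the counting used strand is not given in the sources used here.

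The phosphatase gene *daf-18* (T07A9.6, chromosome IV from 420011 to 425177), which opposes AGE-1, was at 436, 673 and 677 CPM in *age-1; rde-4*, at 596, 562 and 580 CPM in *age-1*, at 595, 692 and 731 CPM in *rde-4* and at 655, 587 and 660 CPM in WT. The groups overlapped in every pair. The log2 fold change was 0.04 in *age-1; rde-4* over *age-1* (95% interval −0.28 to 0.36, adjusted p = 0.954) and 0.09 in *rde-4* over WT (95% interval −0.24 to 0.41, adjusted p = 0.917). The effect of RDE-4 loss in the *age-1* background minus that in the WT background was −0.05 (95% interval −0.50 to 0.41, adjusted p = 0.961). Mutation of *age-1* gave −0.18 in the *rde-4* background (95% interval −0.50 to 0.14, adjusted p = 0.644) and −0.13 in the WT background (95% interval −0.45 to 0.19, adjusted p = 0.583).

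The kinase gene *pdk-1* (H42K12.1, chromosome X from 1321344 to 1327986), whose product activates AKT and SGK-1, was at 9.73, 14.9 and 17.4 CPM in *age-1; rde-4*, at 18.9, 20.9 and 20.4 CPM in *age-1*, at 15.7, 23.9 and 20.0 CPM in *rde-4* and at 14.1, 20.6 and 20.2 CPM in WT. All 3 *age-1; rde-4* libraries were below all 3 *age-1* libraries, and they overlapped *rde-4* and WT. The log2 fold change of −0.52 against *age-1* had an unadjusted p of 0.0394 and an adjusted p of 0.426. The lowest library was again *age-1; rde-4* population 1, followed by WT population 1.

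Of the AKT pair, *akt-1* (C12D8.10, chromosome V from 10248905 to 10252845) was among the steadiest transcripts of the whole table. It lay between 250 and 279 CPM in *age-1; rde-4*, 256 and 270 CPM in *age-1*, 272 and 295 CPM in *rde-4* and 249 and 321 CPM in WT. No log2 fold change of *akt-1* exceeded 0.11 in size. Its SD of log2 CPM over the 12 libraries was 0.11, and 1.25% of the genes tested had a smaller one.

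The other AKT gene, *akt-2* (F28H6.1, chromosome X from 14147700 to 14152070), was at 30.98, 32.97 and 29.03 CPM in *age-1; rde-4*, at 32.5, 37.5 and 26.6 CPM in *age-1*, at 17.2, 17.2 and 10.7 CPM in *rde-4* and at 12.05, 12.7 and 11.1 CPM in WT. Every library with the *age-1* mutation was above every library without it. *akt-2* rose in *age-1* over WT by 1.43 on the log2 scale (SE 0.19, 95% interval 1.02 to 1.84, adjusted p = 0.00201). It also rose in *age-1; rde-4* over *rde-4*, by 1.04 (SE 0.19, 95% interval 0.64 to 1.45, adjusted p = 0.0166), and in *age-1; rde-4* over WT, by 1.37 (SE 0.19, adjusted p = 0.000841). The call over *rde-4* was lost without *age-1; rde-4* population 2 (1.00, adjusted p = 0.0704) and with those 2 genotypes fitted alone (1.05, adjusted p = 0.0897).

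Loss of RDE-4 did not move *akt-2* past the threshold in either background. The log2 fold change was −0.06 in *age-1; rde-4* over *age-1* (95% interval −0.45 to 0.34, adjusted p = 0.945) and 0.33 in *rde-4* over WT (95% interval −0.07 to 0.73, adjusted p = 0.496). Populations 1 and 2 of *rde-4* lay above all WT libraries, and population 3 lay below them. The effect of *age-1* in the *rde-4* background minus that in the WT background was −0.39 (95% interval −0.95 to 0.18, adjusted p = 0.61).

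Against its partner gene, *akt-2* took a larger share where *age-1* was mutated. Per kb of exon it reached 11.04 ± 0.973% of the level of *akt-1* in *age-1; rde-4*, 11.8 ± 2.13% in *age-1*, 5.08 ± 1.40% in *rde-4* and 4.10 ± 0.684% in WT (SD, n = 3). The ranges with and without the *age-1* mutation did not overlap, the lowest being 9.79% with it and the highest 6.05% without it. No annotated gene overlaps *akt-2*. Its 2 annotated transcripts were not told apart, since the counts are per gene.

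**Figure D3:**
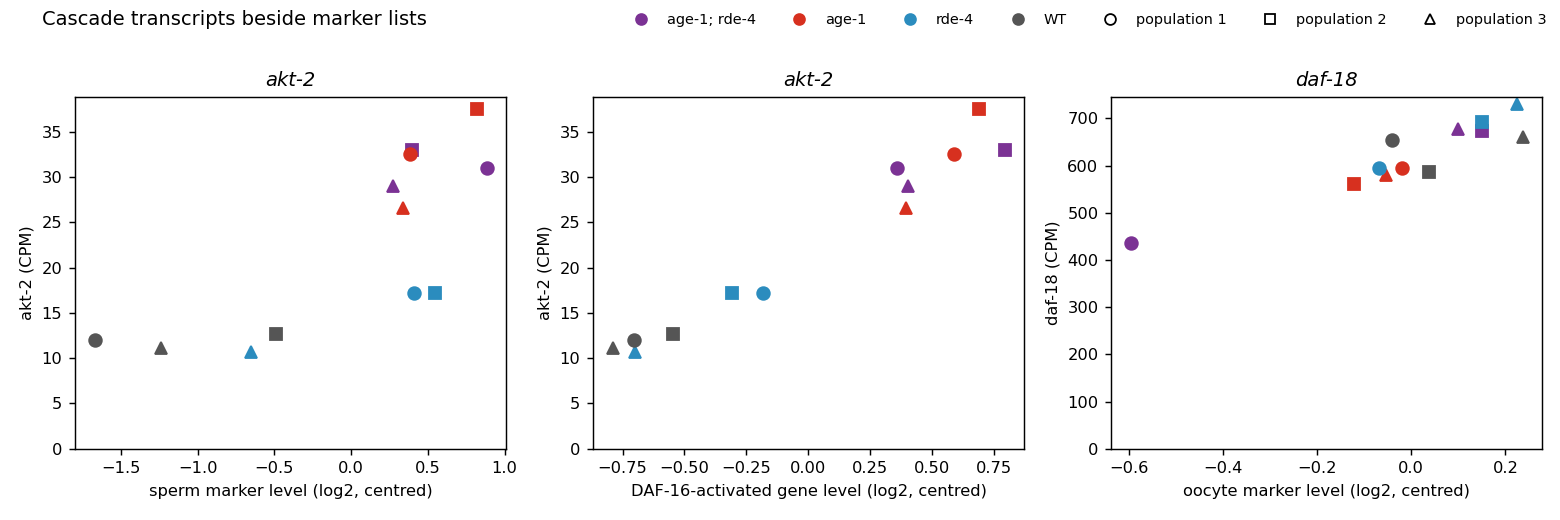
Transcript level (CPM, vertical axes from 0) of *akt-2* against the mean level of sperm markers (left) and of DAF-16-activated genes (middle), and of *daf-18* against that of oocyte and early embryo markers (right), each marker level on a log2 scale centred over the 12 libraries; colour gives the genotype and symbol the population. In the left panel *akt-2* is at 26.6 to 37.5 CPM in the 6 libraries with the *age-1* mutation, at sperm levels of 0.28 to 0.88, and at 10.7 to 17.2 CPM in the 6 libraries without it, at −1.67 to 0.55.

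Sperm markers also differed between the genotypes. The 26 markers, all expressed in at least 1 library and 11 of them above 1 CPM in every library, summed to 204 to 316 CPM in *age-1; rde-4*, 235.4 to 298 CPM in *age-1*, 125 to 244 CPM in *rde-4* and 84.8 to 153 CPM in WT. In *age-1* over WT 16 of the 26 were called higher and in *age-1; rde-4* over WT 12, while in *age-1; rde-4* over *rde-4* edgeR called 0 of 26 (1 at an unadjusted p under 0.05). Of all genes tested, 12.2%, 8.95% and 1.34% were called higher in these comparisons. Without the *age-1* mutation, in *rde-4* over WT, 6 of the 26 were called higher and 0 lower, beside 3.63% and 0.866% of all genes. At an unadjusted p under 0.05 they were 13 and 0, with a median log2 fold change of 0.91. A covariate for sperm marker level was tried once the values were known. With it *akt-2* was 0.81 higher in *age-1* than in WT on the log2 scale (adjusted p = 0.719) and 0.76 higher in *age-1; rde-4* than in WT (adjusted p = 0.206), so that these calls were lost. Over all genes, it left 0 called higher in *age-1* over WT, against 2046 without it. In *age-1; rde-4* over WT it left 106, against 1499. Sperm marker levels of the WT libraries did not overlap those of *age-1* or *age-1; rde-4*, so these fits cannot separate genotype from sperm level. In *age-1; rde-4* over *rde-4*, whose sperm marker levels overlap, *akt-2* was 0.92 higher (adjusted p = 0.00965).

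Library by library, the sperm marker level and *akt-2* stood as follows. Populations 2 and 3 of *age-1; rde-4*, at sperm levels of 0.40 and 0.28, held 32.97 and 29.03 CPM of *akt-2*, and population 1, at 0.88, held 30.98 CPM. In *age-1*, populations 1 and 3, at 0.38 and 0.34, held 32.5 and 26.6 CPM and population 2, at 0.82, held 37.5 CPM. In *rde-4*, populations 1 and 2, at 0.41 and 0.55, held 17.2 and 17.2 CPM and population 3, at −0.66, held 10.7 CPM. In WT, populations 1, 2 and 3, at −1.67, −0.49 and −1.24, held 12.05, 12.7 and 11.1 CPM. Within *age-1* the 3 libraries had the same order in both, and within *rde-4* the library lowest in one was lowest in the other. Within *age-1; rde-4* population 3 was lowest in both, while population 1 was highest in sperm level and population 2 in *akt-2*. Within WT population 2 was highest in both, while population 1 was lowest in sperm level and population 3 in *akt-2*. The part of sperm in the *akt-2* values was not tested beyond the covariate. Cuticle collagens, whose transcripts cycle with the molts, also differed, at −0.04 to 0.48 in *age-1* and −0.87 to 0.12 in WT. In *age-1* over WT 30 of 115 were called higher, beside 12.2% of all genes tested. With collagen level as a covariate *akt-2* was 1.32 higher in *age-1* than in WT (adjusted p = 0.1), and its call was lost. Over all genes, that covariate left 10 called higher in *age-1* over WT, against 2046 without it. Muscle markers were at 0.55 to 0.74 in *age-1*, at −0.16 to 0.00 in *age-1; rde-4* and at −0.78 to 0.43 in WT. They were called higher for 4 of 10 in *age-1* over WT and, by edgeR, for 0 of 10 in *age-1; rde-4* over WT (1 at an unadjusted p under 0.05, median log2 fold change 0.19). The shares of all genes called higher there were 12.2% and 8.95%. The part of cuticle and muscle in the *akt-2* values was not otherwise tested.

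The SGK kinase gene *sgk-1* (W10G6.2, chromosome X from 16254842 to 16262122) ran the other way. It was at 21.4, 23.4 and 26.3 CPM in *age-1; rde-4*, at 27.1, 32.4 and 33.9 CPM in *age-1*, at 29.3, 33.1 and 28.01 CPM in *rde-4* and at 36.8, 39.3 and 33.3 CPM in WT. The 3 *age-1; rde-4* libraries were the lowest 3 of the 12, below each of the other groups without overlap.

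*sgk-1* fell in *age-1; rde-4* against WT, to 23.7 ± 2.46 CPM in *age-1; rde-4* against 36.5 ± 3.02 CPM in WT (log2 fold change −0.62, 95% interval −0.90 to −0.34, adjusted p = 0.00896). Against *age-1* it was −0.39 (SE 0.13, unadjusted p = 0.01, adjusted p = 0.266) and against *rde-4* −0.35 (SE 0.13, adjusted p = 0.241). Mutation of *age-1* alone gave −0.23 (adjusted p = 0.243) and loss of RDE-4 alone −0.27 (adjusted p = 0.366), and the interaction was −0.12 (95% interval −0.52 to 0.28, adjusted p = 0.854). Intestine markers also differed, with 4 of 11 called lower and 1 higher in *age-1; rde-4* over WT, beside 3.17% and 8.95% of all genes. They summed to 1906 to 3558 CPM in *age-1; rde-4* and 3673 to 4159 CPM in WT, and their part in the *sgk-1* value was not tested. Without the pair of libraries that stood apart the change was −0.53 (adjusted p = 0.0613), and with those 2 genotypes fitted alone −0.60 (adjusted p = 0.0554). With sperm marker level as a covariate it was −0.74 (adjusted p = 0.143). Over all genes, that covariate left 115 called lower in *age-1; rde-4* over WT, against 530 without it.

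The FOXO gene *daf-16* (R13H8.1, chromosome I from 10750498 to 10776703) varied little. It was at 27.2, 32.5 and 33.4 CPM in *age-1; rde-4*, at 36.8, 34.1 and 34.7 CPM in *age-1*, at 36.02, 35.8 and 33.9 CPM in *rde-4* and at 35.2, 39.3 and 36.9 CPM in WT. The *age-1; rde-4* libraries lay below those of each other genotype, with log2 fold changes of −0.26 against WT (SE 0.11, adjusted p = 0.148), −0.18 against *age-1* (SE 0.11, adjusted p = 0.579) and −0.18 against *rde-4* (SE 0.11, adjusted p = 0.484). In *age-1* over WT it was −0.08 (95% interval −0.31 to 0.16). The gene has 11 annotated transcripts, which give isoforms with different activity in *C. elegans*, and a shift among them cannot be seen in counts per gene.

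**Figure D4:**
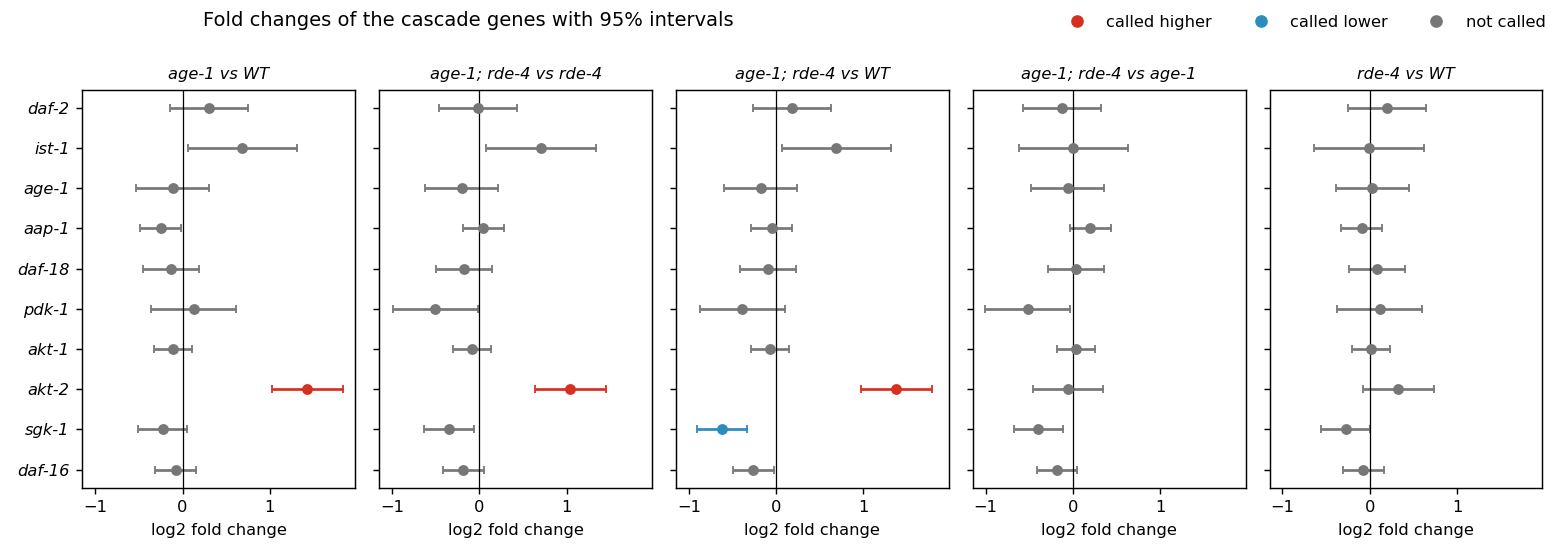
Log2 fold change (points) with its 95% interval (bars) of the 10 cascade genes in 5 comparisons, from edgeR's quasi-likelihood fit of all 12 libraries; colour marks genes past an adjusted p of 0.05. Called are *akt-2*, at 1.43, 1.04 and 1.37 in the first 3 panels, and *sgk-1*, at −0.62 in the third.

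Counted over the cascade, 1 of 10 genes was called higher and 0 lower in *age-1* over WT (2 higher and 1 lower at an unadjusted p under 0.05; DESeq2 also called *akt-2* alone), against 12.2% called higher and 2.58% called lower of all genes tested. Over *rde-4*, *age-1; rde-4* had 1 gene called higher and 0 lower (2 and 2 unadjusted; *akt-2* alone with DESeq2), against 1.34% and 0.245% of all genes. Over WT, *age-1; rde-4* had 1 called higher and 1 lower, against 8.95% and 3.17%. These shares do not set the cascade apart from the table as a whole. The comparisons share libraries, so that calls of a gene in more than 1 of them are not independent.

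Loss of RDE-4 called no cascade gene. Over *age-1*, *age-1; rde-4* had 0 of 10 called by edgeR (0 higher and 2 lower unadjusted, *sgk-1* and *pdk-1*; 0 with DESeq2), against 0.317% called higher and 0.108% lower of all genes. For *rde-4* over WT it called 0 of 10 (0 unadjusted; 0 with DESeq2), against 3.63% and 0.866%. For the interaction it called 0 of 10 (0 unadjusted; 0 with DESeq2), against 0.0538% and 0.0597%. The 10 log2 fold changes ran from −0.52 to 0.20 in *age-1; rde-4* over *age-1* and from −0.27 to 0.33 in *rde-4* over WT, with medians of −0.06 and 0.02 beside −0.06 and −0.02 over all genes tested.

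Over the 12 libraries the cascade genes differed in how much they varied. The SD of log2 CPM was 0.69 for *akt-2*, 0.48 for *ist-1*, 0.35 for *pdk-1*, 0.28 for *daf-2*, 0.26 for *age-1* and for *sgk-1*, 0.20 for *daf-18*, 0.14 for *aap-1*, 0.13 for *daf-16* and 0.11 for *akt-1*, with a median of 0.37 over all genes. Within genotypes the SD of *akt-2* was 0.24, below the median of 0.31. In *age-1; rde-4* population 1, 9 of the 10 genes were below the mean of the other 2 populations, by up to 0.85. Of the 10 genes, 6 had their lowest level of all 12 libraries there (*daf-2*, *age-1*, *daf-18*, *pdk-1*, *sgk-1* and *daf-16*), and it also had the lowest oocyte marker sum, 7905 CPM against 11606 to 14874 CPM in the other 3 genotypes. The part of oocyte number in these values was not tested.

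Genes outside the pathway lists followed some members closely. By Pearson correlation of log2 CPM over the 12 libraries, among 12783 genes with a mean of at least 50 normalized counts, the 3 most like *daf-2* were *vps-13A* (0.97), *dock-11* (0.96) and *gap-3* (0.96). The 3 most like *daf-18* were *tbc-9* (0.98), F14E5.2 (0.98) and *ape-1* (0.97), and the 3 most like *daf-16* were Y50D7A.1 (0.95), F56D5.4 (0.95) and *gmpr-1* (0.94). These points share their libraries and the low values of *age-1; rde-4* population 1. None of these 9 genes was called by edgeR in any of the comparisons.

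The genes most like *akt-2*, looked up after its values were seen, were *ttr-5*, *tts-1* and E04F6.9 (each 0.98). The long noncoding RNA *tts-1*, known in *C. elegans* for high levels in long-lived *daf-2* mutants, was at 107 ± 22.5 CPM in *age-1; rde-4*, 102 ± 15.0 CPM in *age-1*, 47.9 ± 17.9 CPM in *rde-4* and 35.2 ± 5.39 CPM in WT (SD, n = 3). The transthyretin-related gene *ttr-5* was at 29.4 ± 1.17, 30.7 ± 6.095, 13.9 ± 3.81 and 12.2 ± 2.02 CPM in the same order. Like *akt-2*, all 3 were called higher in *age-1* over WT (log2 fold changes of 1.33 to 1.54) and in *age-1; rde-4* over *rde-4* (0.96 to 1.16). They were chosen for this likeness, so the calls describe them and test nothing.

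Upstream of the receptor, 25 of 40 insulin-like peptide genes passed the filter. In *age-1* over WT 6 were called higher and 0 lower (10 and 1 unadjusted; 8 and 0 with DESeq2), beside 12.2% higher and 2.58% lower over all genes. In *age-1; rde-4* over WT 6 were called higher and 1 lower, beside 8.95% and 3.17%, and over *rde-4* 2 and 0, beside 1.34% and 0.245%. The largest called changes over WT were those of *ins-30* in *age-1* (0.846 ± 0.195 CPM, against 0.1002 ± 0.127 CPM in WT, log2 fold change 3.06, adjusted p = 0.0339), and of *ins-11* in *age-1; rde-4* (0.407 ± 0.258 CPM, against 0.0633 ± 0.0290 CPM in WT, 2.65, adjusted p = 0.0427). The genes called in *age-1; rde-4* over *rde-4* were *ins-35* (1.49 ± 0.146 CPM, against 0.256 ± 0.0614 CPM in *rde-4*, 2.53, adjusted p = 0.0105) and *ins-27* (2.34 ± 0.375 CPM, against 0.802 ± 0.166 CPM, 1.54, adjusted p = 0.0267). In WT, *ins-11* had 3 to 7 counts and *ins-30* 2 to 18 counts per library. Levels this low, and a filter passed in part through the group that is higher, limit what the count says. The count in *age-1* over WT ran from 2 to 7 with a library left out, and was 2 without WT population 1, WT population 3 or *age-1* population 2. With sperm marker level as a covariate edgeR called 0 higher in *age-1* over WT and 0 in *age-1; rde-4* over WT. Over all genes, that covariate left 0 and 106 called higher in these comparisons, against 2046 and 1499 without it.

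The calls among regulators around the cascade stand beside the shares over all genes. In *age-1* over WT 12.2% of all genes were called higher and 2.58% lower, and in *age-1; rde-4* over WT 8.95% and 3.17%. Of 29 tested regulators of DAF-16, *ftt-2*, an adaptor that binds phosphorylated DAF-16, was called higher in *age-1* (80.1 ± 2.37 CPM, against 57.3 ± 10.4 CPM in WT, log2 fold change 0.48, adjusted p = 0.0373). That call held in 7 of 17 alternatives and was lost when any library of *age-1*, or WT population 1 or 3, was left out (adjusted p up to 0.121). DESeq2 also called 2 regulators lower in *age-1* over WT, *hcf-1* (−0.32, adjusted p = 0.041) and *prmt-1* (−0.36, adjusted p = 0.0408), where edgeR called 0 (4 lower unadjusted). The arginine methyltransferase gene *prmt-1*, whose product keeps AKT from phosphorylating DAF-16, was called lower in *age-1; rde-4* (539 ± 35.7 CPM, against 827 ± 42.6 CPM in WT, −0.62, adjusted p = 0.00318). Of 10 genes of the TOR and AMPK branch, *aak-1*, a catalytic subunit of AMPK, was called lower in *age-1; rde-4* (81.8 ± 13.3 CPM, against 111 ± 5.87 CPM in WT, −0.44, adjusted p = 0.0277). Without WT population 3 its adjusted p was 0.0538, and with those 2 genotypes fitted alone 0.144. DESeq2 also called *aak-1* lower in *age-1; rde-4* over *rde-4* (−0.48, adjusted p = 0.00747). None of 12 other phosphoinositide kinases and phosphatases was called by edgeR in any comparison (2 lower unadjusted in *age-1* over WT and 2 in *age-1; rde-4* over WT; 0 with DESeq2). None of 5 genes of the Eph receptor branch was called by edgeR either (1 higher unadjusted in *rde-4* over WT and 1 in *age-1; rde-4* over *age-1*), while DESeq2 called the ephrin gene *efn-4* higher in *age-1; rde-4* over *age-1* (0.69, adjusted p = 0.0111).

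Downstream, part of the genes known to be activated by DAF-16 were higher where *age-1* was mutated. Of 42 tested, 21 were called higher and 0 lower in *age-1* over WT (26 and 0 unadjusted; 23 and 0 with DESeq2), with a median log2 fold change of 0.84 beside 0.03 over all genes. In *age-1; rde-4* over WT 19 were called higher and 0 lower (24 and 0 unadjusted; 20 and 0 with DESeq2; median 0.69 beside −0.02), and in *age-1; rde-4* over *rde-4* 8 and 0 (25 and 0 unadjusted; 18 and 0 with DESeq2; median 0.70 beside 0.01). In *age-1; rde-4* over *age-1* edgeR called 0 (1 higher and 2 lower unadjusted; 0 higher and 1 lower with DESeq2; median −0.01 beside −0.06), and in *rde-4* over WT 4 and 0 (10 and 1 unadjusted; 6 and 0 with DESeq2; median 0.11 beside −0.02). Of all genes tested, 12.2% were called higher and 2.58% lower in *age-1* over WT, and 8.95% and 3.17% in *age-1; rde-4* over WT. The shares were 1.34% and 0.245% in *age-1; rde-4* over *rde-4* and 0.317% and 0.108% over *age-1*. For *rde-4* over WT they were 3.63% and 0.866%. The count in *rde-4* over WT was 2 without WT population 1 or 3 or *rde-4* population 1 or 2, and 0 with collagen level as a covariate. The count over *rde-4* was 2 without *rde-4* population 2 or 3 and 3 without *age-1; rde-4* population 2. Many of these targets are known from work on *daf-2* mutants.

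Among them, the metallothionein gene *mtl-1* was at 7.09 ± 3.51 CPM in *age-1*, against 0.828 ± 0.596 CPM in WT (log2 fold change 3.10, SE 0.64, adjusted p = 0.0128), and in *age-1; rde-4* at 19.05 ± 14.6 CPM, against 1.35 ± 0.331 CPM in *rde-4* (3.82, SE 0.65, adjusted p = 0.0114). The ferritin gene *ftn-1* was at 7.22 ± 3.44 CPM in *age-1*, against 0.831 ± 0.231 CPM in WT (3.12, SE 0.45, adjusted p = 0.00268). The list's mean level, on a log2 scale centred over the libraries, was 0.36 to 0.80 in *age-1; rde-4*, 0.40 to 0.69 in *age-1*, −0.70 to −0.18 in *rde-4* and −0.79 to −0.55 in WT. It separated libraries with and without the *age-1* mutation as *akt-2* did. With sperm marker level as a covariate 0 were called in *age-1* over WT, 1 in *age-1; rde-4* over WT and 9 in *age-1; rde-4* over *rde-4*. With collagen level as a covariate the counts were 1, 16 and 14. Over all genes, the sperm covariate left 0, 106 and 262 called higher in these comparisons, and the collagen covariate 10, 1082 and 470. Without a covariate 2046, 1499 and 225 genes were called higher.

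Of 17 genes listed as repressed by DAF-16, 2 were called lower and 2 higher in *age-1* over WT (4 and 2 with DESeq2), beside 2.58% lower and 12.2% higher over all genes. Over WT, *age-1; rde-4* had 2 called lower and 3 higher (3 and 3 with DESeq2), beside 3.17% and 8.95%. With a library left out, 1 to 3 were called lower in either comparison, with 1 in *age-1* over WT without WT population 1 or *age-1* population 2, and 1 in *age-1; rde-4* over WT without WT population 1 or 3 or *age-1; rde-4* population 2. The lower ones included *dod-24*, an innate immunity gene, at 14.7 ± 5.09 CPM in *age-1*, against 69.2 ± 20.7 CPM in WT (log2 fold change −2.24, SE 0.32, adjusted p = 0.0026). The 2 higher genes in *age-1*, *pud-1.1* and *pud-2.1*, go against the name of the list, on which their place is doubtful. The gene *pud-1.1*, named for a protein up-regulated in *daf-2* mutants, was at 76.4 ± 31.5 CPM in *age-1*, against 11.3 ± 2.24 CPM in WT (2.75, SE 0.37, adjusted p = 0.00221), and has a near-identical copy with which it may share reads. These changes were not particular to the *age-1* mutation. In *rde-4* over WT 1 gene was called lower and 2 higher (1 and 2 with DESeq2), beside 0.866% and 3.63%. They were *dod-24* (−1.22, adjusted p = 0.0418), *pud-1.1* (1.78, adjusted p = 0.0155) and *pud-2.1* (1.88, adjusted p = 0.015). With a library left out these counts ran from 0 to 1 and from 0 to 2.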

How the data were processed

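Read counts of 12 libraries were used, 3 independent populations each of *age-1; rde-4*, *age-1*, *rde-4* and WT. The authors mapped reads with HISAT2 2.0.5 to WBcel235 and deposited whole-number counts per gene, quantified with StringTie and not normalized. Whether counting used strand is not given in the sources used here. Library totals were 74501098 to 82446102 counts, which limit precision by counting error only where a gene is scarce. Locus tags placed 45305 of 46653 identifiers in the annotation, transcript names placed 876, and 472 were not placed. Replicates of a group differed by a chi-square of 35.8 to 252 per gene, so each was counted separately.

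The tests were run with edgeR 4.0.16 in R 4.3.3. The genes kept by filterByExpr (16741) were scaled by TMM and tested in 1 quasi-likelihood model of the 4 groups (glmQLFit, glmQLFTest, two-sided), with Benjamini-Hochberg adjustment over all genes and a threshold of 0.05. A gene past it is called. Each SE belongs to the model's log2 fold change. Levels per kb used the length of annotated exons in place of the coding length first planned. Marker levels are mean log2 CPM (prior count 2), centred over libraries.

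The cascade genes and the gene lists were chosen with earlier results of these data known. Named were the 10 members, *rde-4*, genes from among the up to 4 called with the largest change per list and comparison, and the 3 genes most correlated with *daf-2*, *daf-18* and *daf-16*. Added after the data were seen were the 3 genes most like *akt-2*, *efn-4*, *hcf-1*, sperm and oocyte marker levels as covariates, a test above a log2 fold change of 0.5 and leaving out the libraries that stood apart. Other alternatives were RLE size factors, DESeq2 1.42.0, no filter on low counts or one at a mean of 50, a fit of only the genotypes compared, replicate number as a block, collagen level as a covariate and each library left out. The fit was tested on simulated counts. Promoter motifs were not analysed here.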

Additional observations from a re-analysis of the deposited data

Results flagged for a closer look

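Among the genes tested around the cascade, the effect of *age-1* on *lea-1*, a late embryogenesis abundant protein gene on the list of DAF-16-activated genes, differed between backgrounds by the test of the interaction. Its transcript was at 406, 624 and 651 CPM in *age-1; rde-4*, 911, 1004 and 921 CPM in *age-1*, 283, 487 and 292 CPM in *rde-4* and 113, 163 and 145 CPM in WT. The *age-1* effect on the log2 scale was 0.66 in the *rde-4* background (SE 0.22, adjusted p = 0.189) and 2.75 in the WT background (SE 0.24, adjusted p = 0.000161), a difference of −2.09 (SE 0.32, adjusted p = 0.0271). Marker lists had negative medians in the same contrast, −1.23 for 26 sperm markers (10 lower at an unadjusted p under 0.05), −0.44 for 10 muscle markers (0 lower unadjusted) and −0.78 for 115 collagens (29 lower unadjusted), with 0 called by edgeR in any of the 3, and their part in the *lea-1* value was not tested. No cascade gene passed this test. For *lea-1* itself the difference ran from −2.21 to −1.57 over 22 alternatives and was called in 14. Over 22 alternatives the number of DAF-16-activated genes called lower for the interaction ran from 0 to 2, and it was 0 with no filter, with collagen or sperm marker level as a covariate, above a log2 fold change of 0.5, and when any 1 of the *age-1* libraries, or *age-1; rde-4* population 2, was left out.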

How the results depend on the processing

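Of 1070 recomputed fold changes of the cascade genes, 1054 kept their side of the threshold, 6 passed it newly and 10 fell short of it. Most of them were called neither before nor after. The sign changed in 93, of which 0 were called in either fit. Of 17 alternatives, *akt-2* was called in 15 for *age-1* over WT, 14 for *age-1; rde-4* over *rde-4* and 16 over WT. For *sgk-1* in *age-1; rde-4* over WT it was 13 of 17. The number of cascade genes called in *age-1* over WT, 1, became 2 with the replicate block, which added *ist-1* (0.73, adjusted p = 0.0345), 2 with oocyte marker level, which added *daf-2*, 0 with collagen level and 0 with sperm marker level as a covariate, and 1 to 3 with a library left out (3 without WT population 2). In *age-1; rde-4* over *rde-4*, 1 became 0 with the test above a log2 fold change of 0.5 and 0 with those groups fitted alone, and 0 to 1 with a library left out (0 without *age-1; rde-4* population 2, where *akt-2* was at 1.00, adjusted p = 0.0704). In *age-1; rde-4* over WT, 2 became 0 with sperm marker level as a covariate, 1 above 0.5, 1 without the libraries that stood apart and 1 with those groups fitted alone, and 2 to 3 with a library left out or with the replicate block, which again added *ist-1* (0.72, adjusted p = 0.0459). With the other alternatives these counts, and the 0 called in the other comparisons, did not change. *akt-2* kept its direction in *age-1* over WT (0.81 to 1.55), in *age-1; rde-4* over *rde-4* (0.87 to 1.198) and in *age-1; rde-4* over WT (0.76 to 1.43) under every alternative run, as did *sgk-1* in *age-1; rde-4* over WT (−0.74 to −0.53). Why calls were lost was not tested. Where libraries were left out, the fit also had fewer samples. The sperm covariate, which differs between WT and *age-1* libraries, also left 0 higher genes of 2046 in *age-1* over WT. Collagen level as a covariate took that count to 10, and the replicate block took it to 2989. Over all genes, the other counts also moved by more than 1.5 times under some alternatives, from 432 lower in *age-1* over WT to between 1 and 1605, from 225 higher in *age-1; rde-4* over *rde-4* to between 39 and 603, and from 53 higher in *age-1; rde-4* over *age-1* to between 17 and 404. Same-numbered libraries deviated together with r of −0.02 to 0.37 over 18 pairs, against −0.39 to 0.19 over 36 other pairs. Of the 18 pairs 12 were over 0.1, against 3 of the 36, and libraries matched best with their own number in 27 of 36 cases, a hint of shared conditions. The labels name no shared batch, and not every pair of any 2 genotypes compared was over 0.1, so the fit without the block was kept. The block called 3 DAF-16 regulators and 5 DAF-16-repressed genes lower in *age-1* over WT, where 0 and 2 were called without it. Counting error limits *ist-1*, with 72 to 257 counts per library, most among the cascade genes, and the insulin-like peptides more.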
